A study of Equus caballus with 68 samples.

Results

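DEFB1, FAXDC2, ALDH2, RNASE4 and RNASE6 were followed in equine bone marrow mononuclear cells (BMNC) before and during culture in synovial fluid. They are 5 of the 30371 entries of the expression table, and all 5 were among the 14570 genes that passed the filter on low values. The genes were chosen on their values in these same libraries. By that choice, DEFB1, FAXDC2, ALDH2 and RNASE4 were lower in inflamed than in normal synovial fluid and RNASE6 was not. On average this held at 6 and 10 days. At 48 hours DEFB1 and ALDH2 were higher in inflamed fluid and RNASE6 was lower. As this contrast chose the genes, the difference between the fluids is given for them as a description, without a test.

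Cells came from 8 adult Thoroughbreds, 2 mares and 6 geldings aged 3 to 9 years (median 5), and the BMNC of each horse were cultured on their own in undiluted fluid of the same horse. Normal synovial fluid (SF) was taken from healthy middle carpal joints, and inflamed synovial fluid (ISF) from radiocarpal joints injected with lipopolysaccharide, an acute synovitis model and not natural joint disease. There were 68 libraries, with 1 per horse and condition. Uncultured cells (0 hours) were sequenced from all 8 horses. Each fluid had cultures of 8 horses at 96 hours and again at 6 days. Cultures of 7 horses were sequenced at 48 hours, without Moon, and of 7 at 10 days, without Flash. Changes to or from these times, fitted without a term for horse, thus compare groups that differ by 1 horse. Both fluids share the 0 hour libraries.

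The 5 genes belong to host defence and to lipid and aldehyde chemistry. DEFB1 encodes beta-defensin 1, a small cationic antimicrobial peptide made mainly by epithelia and also by monocytes and macrophages. RNASE4 and RNASE6 encode secreted ribonucleases of the RNase A family, enzymes that cut RNA and of which several, RNASE6 among them, damage bacteria. ALDH2 is the mitochondrial aldehyde dehydrogenase that oxidises acetaldehyde and the reactive aldehydes of lipid peroxidation. FAXDC2 is a membrane protein of the fatty acid hydroxylase superfamily, which also holds sterol oxidases. RNASE4 and RNASE6 lie near each other in the RefSeq annotation of the horse. In human and mouse, RNASE4 shares its 5′ exons with ANG, another RNase A gene, which was not analysed here.

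Levels are GeTMM, which divide the reads of a gene by its length and by the scaled size of the library, so that they can be compared between genes as well as between libraries. Libraries held 15.7 to 36 M reads on genes (median 22.3 M), and none of the 5 genes was at 0 in any library. The fewest reads behind a value were 18 for FAXDC2, 20 for DEFB1, 50 for RNASE4, 1185 for RNASE6 and 3739 for ALDH2. By the 200 genes that differed most between horses in the other groups, 66 libraries lay closest to the mean profile of their own horse there. The ISF libraries labelled Dealings and Dreamer at 96 hours each lay closest to the other of these horses (r = 0.958 and 0.922). The SF library of Moon at 6 days stood apart, with values that summed to 2321940 against 817795 to 1458342 in the others. Where these 3 libraries enter the difference between the fluids of the 5 genes, it is given with and without them. The counts of horses over intervals and for related genes, and the fits with the horse as a block, keep the labels as given.

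Marker genes of other cells moved with time and fluid. The mean log2(GeTMM + 1) of 6 macrophage genes was 3.69 to 4.64 in the uncultured cells. After 10 days it was 9.56 to 10.7 over the cultures of both fluids. That of 6 neutrophil precursor genes was highest at 0 hours (9.65 to 10.6), and at 6 days its median was 4.44 in ISF and 7.38 in SF. For 5 T cell genes the median at 10 days was 1.32 in ISF (0.85 to 1.89) and 4.12 in SF (2.48 to 5.22). For 4 B cell genes it was 1.25 in ISF and 3.23 in SF at 10 days. For 5 fibroblast genes it was 0.14 (0.03 to 3.38) in ISF and 2.59 (0.10 to 9.39) in SF at 10 days. At 6 days the median was higher in ISF than in SF for macrophage genes (10.3 against 9.93) and monocyte genes (5.59 against 4.97). It was also higher for cell cycle (4.94 against 4.25) and plasmacytoid dendritic cell genes (4.41 against 3.77), all with overlapping ranges. The other lists had the higher median in SF then. At 10 days the monocyte and cell cycle medians were lower in ISF (4.94 against 5.00 and 3.09 against 3.66). The part of these shifts in the differences between the fluids was not tested. In bulk RNA, fewer cells of a type and less RNA per cell cannot be told apart.

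Over all 14570 genes, limma called 0.872% higher and 0.81% lower in ISF than in SF at 48 hours. The shares were 6.16% and 4.3% at 96 hours, 16.7% and 13.6% at 6 days, and 9.95% and 10.8% at 10 days. Called means a Benjamini-Hochberg false discovery rate (FDR) under 0.05. Since this contrast chose the 5 genes, nothing is read from their place against these shares.

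**Figure D1:**
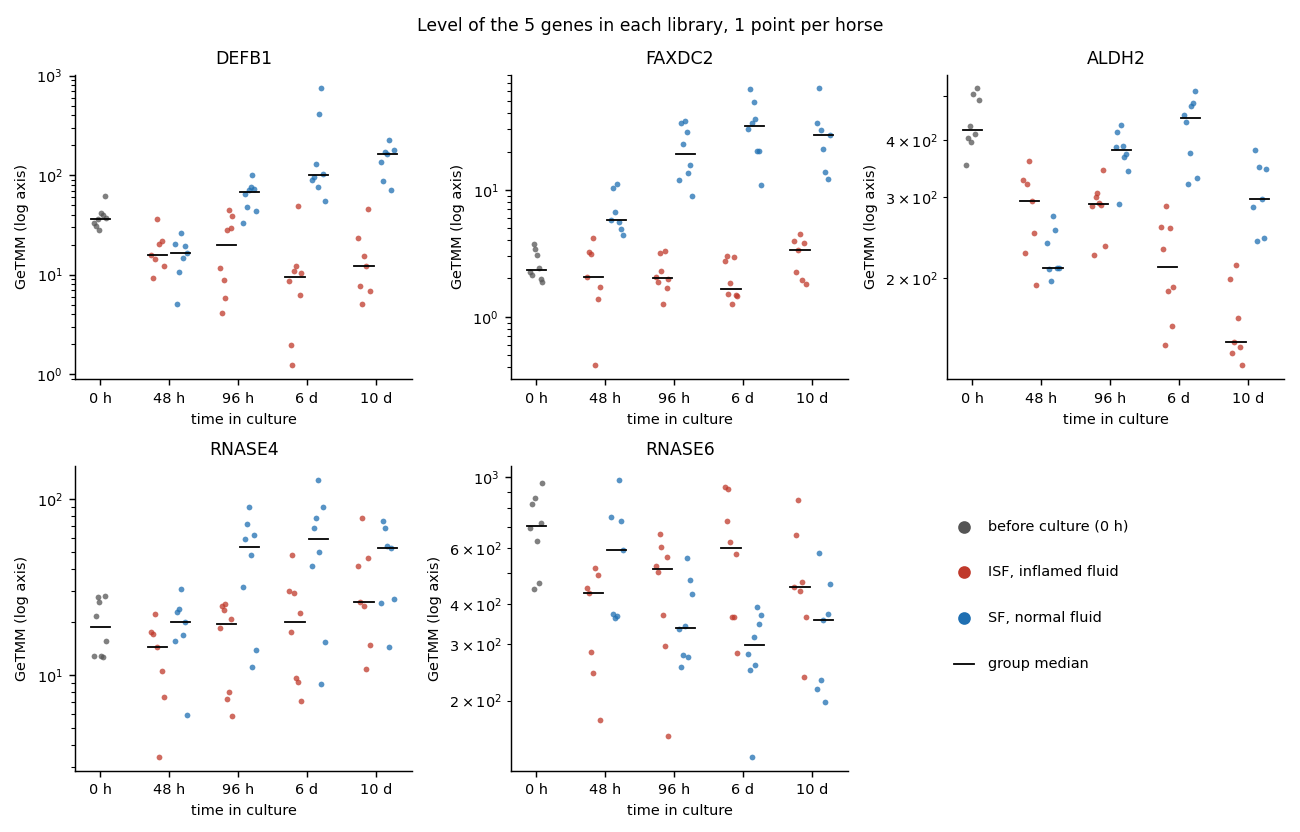
GeTMM on a log axis against time in culture for each of the 5 genes, with 1 point per horse (grey, before culture; red, ISF; blue, SF) and a black bar at the group median. FAXDC2 in ISF stays between 0.413 and 4.45 GeTMM while the SF points climb away from it, and the RNASE6 points of both fluids overlap at every time.

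DEFB1 had the widest gap between the fluids of the 5 genes on the log2(GeTMM + 1) scale at 6 and 10 days, while the fluids overlapped at 48 hours. On the ratio of group means at 10 days, FAXDC2 (9.31) was above DEFB1 (8.84). At 0 hours the level of DEFB1 was 28.3 to 62.0 GeTMM (median 36.4). At 48 hours it was 9.19 to 36.5 (median 15.8) in ISF and 5.06 to 26.0 (median 16.4) in SF. Both fluids lay mostly below the uncultured cells then, with 5 of 7 horses higher in ISF than in SF.

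In SF the level of DEFB1 then climbed to 32.9 to 99.6 (median 68) at 96 hours, 55.0 to 745.3 (median 100.1) at 6 days and 70.4 to 225.3 (median 161.4) at 10 days. In ISF it was 4.11 to 45.0 (median 19.7) at 96 hours, 1.22 to 49.4 (median 9.44) at 6 days and 5.04 to 45.9 (median 12.2) at 10 days. The ranges of the fluids overlapped at 96 hours and lay apart at 6 and 10 days. At 6 days the ISF culture of Moon was the high one, since the next horse was at 12.2, and Dreamer was the lowest.

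Horse by horse, the log2 difference of DEFB1, ISF minus SF, averaged 0.21 ± 0.44 (SD, n = 7) at 48 hours and -1.86 ± 1.20 (n = 8) at 96 hours. It averaged -3.98 ± 1.23 (n = 8) at 6 days and -3.31 ± 1.44 (n = 7) at 10 days. All horses were lower in ISF at the last 3 times. The smallest of these differences were those of RimRun at 96 hours (-0.17) and Ollie at 10 days (-0.61). Without Dealings and Dreamer the mean at 96 hours was -1.48 (6 of 6 horses lower), and without Moon the mean at 6 days was -4.00 (7 of 7).

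On group means, DEFB1 in SF was 17.0 times its level in ISF at 6 days, and 18.8 times without Moon. The SF mean at 6 days (214 ± 244 GeTMM, n = 8) rests on 2 cultures, Moon at 745.3 and Lurie at 415.4, above the next horse at 128. Per 1 M reads on genes these were 373 and 348 reads, against 45.4 to 111 in the other 6 horses, so on that scale Moon and Lurie lay closer together than in GeTMM. Lurie also had the highest fibroblast marker mean in SF at 6 days (4.92), whereas Moon had the lowest (0.04).

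Over consecutive time points DEFB1 fell from 0 to 48 hours in both fluids, by 1.09 ± 0.47 on the log2 scale (SE, FDR 0.0466, lower in 6 of 7 horses) in ISF and by 1.30 ± 0.47 (FDR 0.0201, 7 of 7) in SF. From 48 to 96 hours it rose in SF by 1.97 ± 0.47 (FDR 0.000934, 7 of 7). From 96 hours to 6 days the SF change was 1.21 ± 0.46 (FDR 0.167), with all 8 horses higher, and 0.86 (FDR 0.442) without Moon's library. No later change in ISF passed the test. The fall in ISF lost its call without Catnip, Dealings, Dreamer, Lurie, Ollie or RimRun (FDR 0.0755 to 0.101), and that in SF without Dealings (FDR 0.0645). These tests used other pairs of groups than the choice of the genes did, but the same libraries, so they are not independent of it. Whether the change in ISF differed from the change in SF was not tested.

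RNASE6 was abundant at the start. At 6 and 10 days its mean difference between the fluids had the opposite sign to those of the other 4 genes. That contrast was part of the choice of the genes. At 48 hours RNASE6 was lower in ISF on average, as were FAXDC2 and RNASE4, while DEFB1 and ALDH2 were higher. Before culture, at 0 hours, RNASE6 was at 446 to 963 GeTMM (median 706). Its mean over all libraries was above that of 97.8% of the tested genes. At 48 hours it was 174 to 521 (median 433) in ISF and 362 to 984 (median 591) in SF. At 6 days it was 281 to 930 (median 603) in ISF and 133 to 393 (median 298) in SF. So the order of the fluids turned between these times, but the ranges overlapped at all 4 times.

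The log2 difference of RNASE6, ISF minus SF, averaged -0.67 ± 0.60 (SD, n = 7) at 48 hours, with 6 of 7 horses lower in ISF. It averaged 0.97 ± 1.03 (n = 8) at 6 days and 0.52 ± 0.91 (n = 7) at 10 days, with 6 of 8 and 5 of 7 horses higher. The horses did not agree: at 6 days Dreamer was at 2.78 and RimRun at -0.40. At 96 hours the mean was 0.25 ± 0.91 (n = 8), but -0.04 over the other 6 horses (4 of 6 higher) without Dealings and Dreamer. It was 0.10 when only their ISF libraries were left out and their SF libraries kept. Without Moon the mean at 6 days was 1.13.

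In ISF, RNASE6 fell by 0.96 ± 0.29 on the log2 scale from 0 to 48 hours (SE, FDR 0.00352, lower in 7 of 7 horses). In SF the change over that interval was -0.29 ± 0.29 (FDR 0.427). The SF value then went from 594 to 369 GeTMM on group means between 48 and 96 hours, -0.64 ± 0.29 on the log2 scale, with all 7 horses lower and an FDR of 0.0918. No other change of RNASE6 passed the test.

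RNASE4 was at 12.7 to 28.0 GeTMM (median 18.6) at 0 hours. In SF it was 5.96 to 30.7 (median 20.1) at 48 hours, 11.1 to 90.4 (median 53.6) at 96 hours, 8.93 to 129 (median 59.2) at 6 days and 14.4 to 74.8 (median 52.4) at 10 days. In ISF it was 3.43 to 22.2 (median 14.4), 5.87 to 25.4 (median 19.6), 7.12 to 48.0 (median 20) and 10.8 to 77.5 (median 25.9) at the same times. The fluids overlapped at every time, and at 10 days the highest library was an ISF culture, that of Dreamer.

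Within horses the log2 difference of RNASE4 averaged -0.57 ± 0.81 (SD, n = 7, 5 lower in ISF) at 48 hours and -1.38 ± 0.66 (n = 8, all lower) at 96 hours. It averaged -1.29 ± 0.87 (n = 8, 7 lower) at 6 days and -0.45 ± 0.75 (n = 7, 5 lower) at 10 days. Without Dealings and Dreamer the value at 96 hours was -1.36 (6 of 6 lower). Without Moon the value at 6 days was -1.48 (7 of 7 lower). Moon was the exception at 6 days, with 9.13 GeTMM in ISF and 8.93 in SF.

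**Figure D2:**
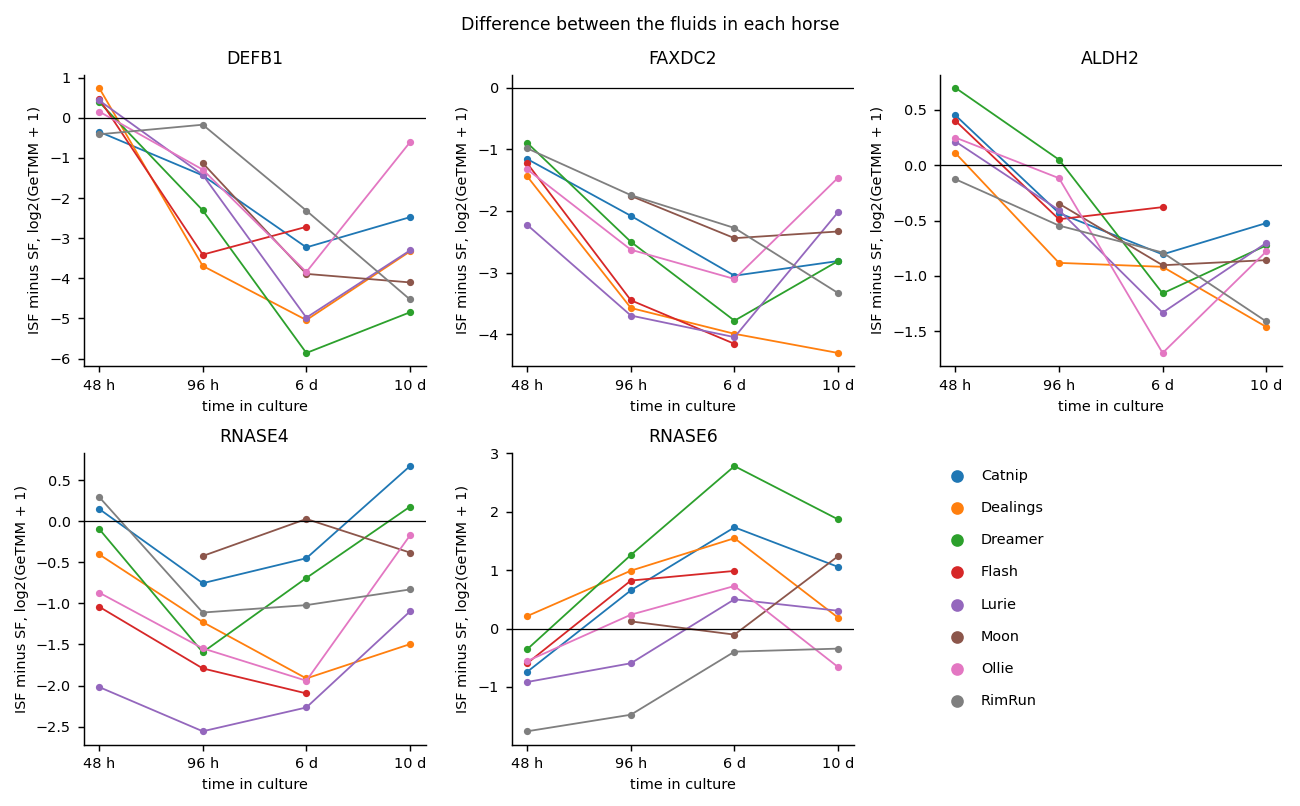
Difference between the fluids, ISF minus SF on the log2(GeTMM + 1) scale, against time in culture, with 1 line per horse and a horizontal line at 0. The FAXDC2 lines of all horses lie below 0 throughout (-0.89 to -4.30), those of DEFB1 and ALDH2 all lie below it at 6 and 10 days, and the RNASE6 lines lie on both sides.

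The horse of origin carried more of the spread of RNASE4 than of any other member. After the group means were taken out, 73.9% of its remaining variation lay between horses, a higher share than in 99.45% of the tested genes (median 24.5%). The share was 73.0% without the 96 hour ISF libraries of Dealings and Dreamer and 73.1% without the 6 day SF library of Moon. For DEFB1 it was 39.2%, for FAXDC2 39.0%, for ALDH2 26.3% and for RNASE6, its neighbour in the genome, 10.9%. The difference between fluids did not enter this share, but the genes were chosen on the same libraries.

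Moon and RimRun, the 2 mares, were the low horses for RNASE4. All 7 libraries of Moon and all 9 of RimRun lay below their group mean, with an average offset of -1.28 and -1.01 on the log2 scale. All 9 libraries of Dreamer and all 7 of Flash lay above it, with offsets of 0.85 and 0.79. In SF at 6 days the mares were at 8.93 and 15.5 GeTMM and the geldings at 41.4 to 129. The mares lay below all geldings in 5 of the 9 groups, among them SF at 48 hours. At 48 hours RimRun was the only mare with a library. In the other 4 groups the ranges overlapped, and at 0 hours the mares were at 12.7 and 15.5 and the geldings at 12.8 to 28.0. This split was noticed in the values and was not tested, and sex and horse cannot be told apart with 2 mares. Among the 52 libraries of the geldings alone, 56.0% of the spread lay between horses.

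**Figure D3:**
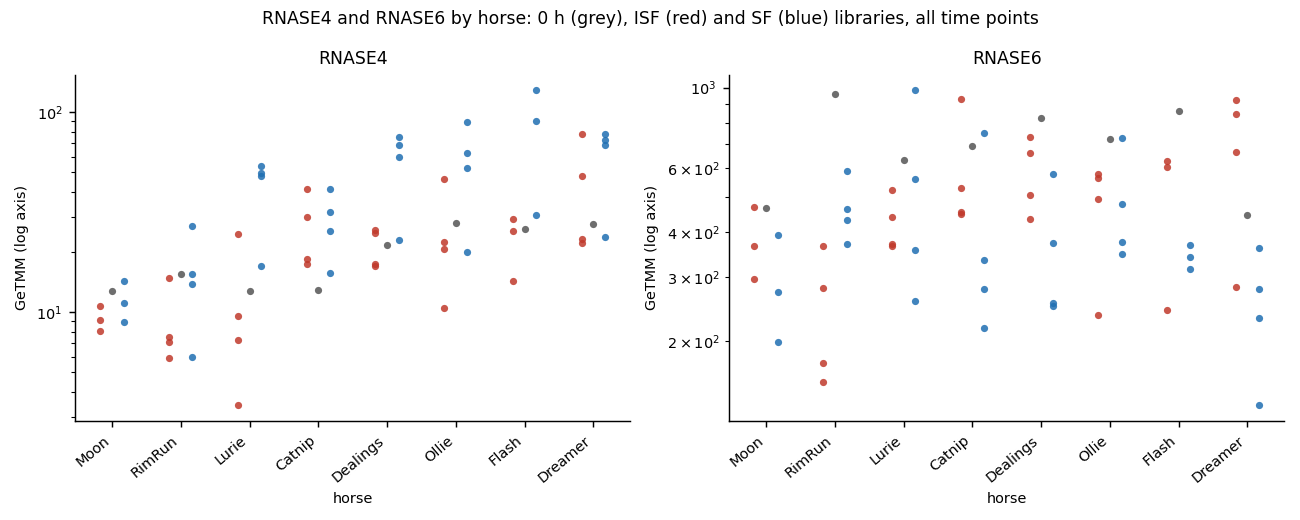
RNASE4 (left) and RNASE6 (right) in GeTMM on a log axis for each horse, with horses ordered by their mean RNASE4 offset and 1 point per library (grey, 0 hours; red, ISF; blue, SF). Moon and RimRun have the lowest RNASE4 offsets (-1.28 and -1.01), and the RNASE6 points of the horses overlap more, with 73.9% and 10.9% of the spread within groups between horses.

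No interval change of RNASE4 passed the test in the fit of all libraries without a term for horse, and 3 did with it. In SF from 48 to 96 hours the change was 1.11 ± 0.46 on the log2 scale (SE, FDR 0.0618, higher in 7 of 7 horses). With the horse as a block in the limma fit it was 1.30 (FDR 2.6e-05), and without Moon it was 1.36 (FDR 0.00775). It passed as well with quantile normalization (1.18, FDR 0.0375) and without the 6 day SF library of Moon alone (FDR 0.038). In ISF from 0 to 48 hours the change was -0.63 (FDR 0.25), or -0.82 with the block (FDR 0.0034). In ISF from 6 to 10 days it was 0.64 (FDR 0.46, higher in 7 of 7 horses), or 0.76 with the block (FDR 0.0253).

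ALDH2 was abundant in every library. It was at 354 to 519 GeTMM (median 421) at 0 hours, and its mean over all libraries was above that of 96.6% of the tested genes. At 48 hours it was 193 to 361 (median 295) in ISF and 197 to 273 (median 211) in SF, overlapping, with 6 of 7 horses higher in ISF. At 6 days it was 143 to 288 (median 211) in ISF and 321 to 512 (median 446) in SF. At 10 days it was 129 to 214 (median 146) and 241 to 381 (median 298), so the fluids lay apart at both of the last times.

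The log2 difference of ALDH2, ISF minus SF, averaged 0.29 ± 0.26 (SD, n = 7) at 48 hours. It averaged -0.40 ± 0.28 (n = 8, 7 lower in ISF) at 96 hours and -0.39 (6 of 6) without Dealings and Dreamer. At 6 days it was -1.0 ± 0.40 (n = 8, all lower), or -1.01 without Moon, and at 10 days -0.92 ± 0.37 (n = 7, all lower). The SF mean was 1.98 times the ISF mean at 6 days, a small gap beside those of DEFB1 and FAXDC2.

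ALDH2 passed the test in more intervals than any other member. It fell from 0 to 48 hours in ISF by 0.65 ± 0.13 on the log2 scale (SE, FDR 3.05e-05) and in SF by 0.94 ± 0.13 (FDR 2.2e-08), in 7 of 7 horses each. From 48 to 96 hours it rose in SF by 0.71 ± 0.13 (FDR 2.25e-05, 7 of 7), against 0.03 (FDR 0.908) in ISF. Later falls were smaller, in ISF by 0.44 from 96 hours to 6 days (FDR 0.0262, 7 of 8 horses) and by 0.39 from 6 to 10 days (FDR 0.0455, 5 of 7), and in SF by 0.46 from 6 to 10 days (FDR 0.0305, 6 of 7). These later calls, with FDR values of 0.0262 to 0.0455, were each lost when any 1 of several horses was left out. The first was lost without Dreamer, Lurie or Ollie (FDR up to 0.185), and the next without Catnip, Dealings, Flash, Moon, Ollie or RimRun (up to 0.173). The SF call was lost without Catnip, Lurie, Moon or Ollie (up to 0.153) and without Moon's 6 day library alone (0.072).

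FAXDC2 was the only one of the 5 genes whose fluids already lay apart at 48 hours. At 0 hours it was at 1.89 to 3.72 GeTMM (median 2.32). In ISF it stayed low, with 0.413 to 4.21 (median 2.05) at 48 hours, 1.26 to 3.32 (median 2.02) at 96 hours, 1.25 to 2.99 (median 1.67) at 6 days and 1.81 to 4.45 (median 3.37) at 10 days. In SF it was 4.38 to 11.2 (median 5.79), 9.00 to 34.7 (median 19.2), 10.9 to 62.6 (median 31.8) and 12.3 to 63.0 (median 27.3) at the same times. The fluids lay apart at all 4 times, at 48 hours by a narrow gap between 4.21 and 4.38. Lurie had the lowest ISF value at 48 hours, 0.413 GeTMM from 18 reads, and Dealings the highest SF values at 6 and 10 days.

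The log2 difference of FAXDC2, ISF minus SF, averaged -1.32 ± 0.44 (SD, n = 7) at 48 hours. It widened to -2.68 ± 0.81 over the 8 horses at 96 hours and to -3.36 ± 0.74 at 6 days, and was -2.72 ± 0.93 over 7 horses at 10 days. Every horse was lower in ISF at every time. The pseudocount of 1 narrows differences at such low levels. On the recovered reads, without it, the value at 48 hours was -1.83. Without Dealings and Dreamer the 96 hour value was -2.56, and without Moon the 6 day value was -3.49. On group means SF was 16.3 times ISF at 6 days, and 18.3 times without Moon.

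In SF, FAXDC2 rose by 1.11 ± 0.28 on the log2 scale from 0 to 48 hours (SE, FDR 0.00076) and by 1.40 ± 0.28 from 48 to 96 hours (FDR 7.53e-05), in 7 of 7 horses each. From 96 hours to 6 days the change was 0.59 ± 0.27 (FDR 0.256), with all 8 horses higher, and 0.66 (FDR 0.292) without Moon's library. In ISF no interval passed the test, with changes of -0.21 to 0.42 and FDR values of 0.407 to 0.953. FAXDC2 and DEFB1 thus moved in opposite directions in SF from 0 to 48 hours, and both rose from 48 to 96 hours.

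**Figure D4:**
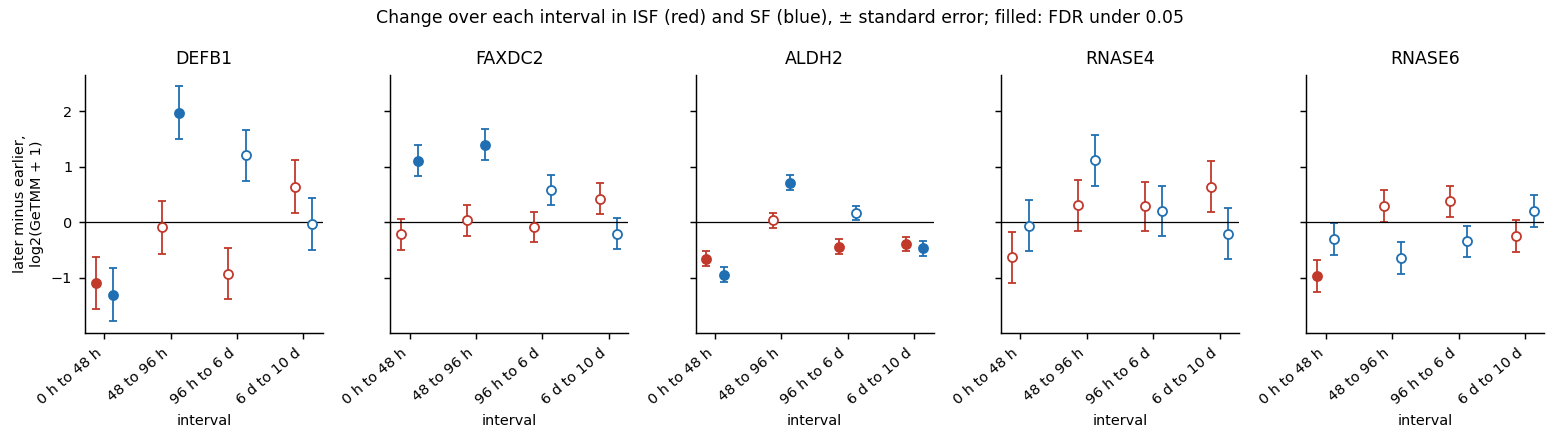
Change between consecutive time points on the log2(GeTMM + 1) scale, with its standard error, for the 5 genes in ISF (red) and SF (blue), filled where the limma FDR was under 0.05. The highest point is DEFB1 in SF from 48 to 96 hours (1.97), and FAXDC2 in ISF and RNASE4 have no filled point.

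Of the 5 genes, 3 fell and none rose in ISF from 0 to 48 hours, where 27.4% of all tested genes fell and 25.3% rose. In SF over that interval 2 fell and 1 rose, against 23.1% and 22.3% of all genes. From 48 to 96 hours 3 rose in SF (background 11.5% higher, 15.8% lower) and none was called in ISF (8.54% higher, 10.4% lower), where none had an unadjusted p under 0.05 and voom also called 0. From 96 hours to 6 days 1 fell in ISF (2.83% higher, 3.54% lower). None was called in SF over that interval (0.432% higher, 1.61% lower), where DEFB1 and FAXDC2 had an unadjusted p under 0.05 and voom called 0. From 6 to 10 days 1 fell in ISF (5.09% higher, 5.44% lower). The same gene, ALDH2, fell in SF (3.19% higher, 1.59% lower). With 5 genes these counts are read no further.

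The order of the group medians differed between the genes. DEFB1 ran from ISF at 6 days up to SF at 10 days, FAXDC2 from ISF at 6 days to SF at 6 days, ALDH2 from ISF at 10 days to SF at 6 days, and RNASE4 from ISF at 48 hours to SF at 6 days. RNASE6 ran from SF at 6 days to 0 hours, with SF at 48 hours above ISF at 48 hours, 96 hours and 10 days. The ranges of groups next to each other in these orders overlapped for all 5 genes. On the log2 scale the mean ± SD of neighbours was separate for FAXDC2 between ISF at 10 days and SF at 48 hours and between SF at 48 and at 96 hours, and for ALDH2 between ISF at 10 days and SF at 48 hours.

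Across the 68 libraries, which share horses and conditions, the log2 levels of DEFB1 and FAXDC2 had a Pearson r of 0.71, DEFB1 and ALDH2 of 0.65, and FAXDC2 and RNASE4 of 0.66. FAXDC2 and ALDH2 had an r of 0.44, DEFB1 and RNASE4 of 0.25, and ALDH2 and RNASE4 of 0.19. RNASE6 had an r of -0.48 with DEFB1, -0.43 with FAXDC2, -0.06 with ALDH2 and -0.06 with RNASE4. The genes were chosen on the difference between the fluids in these libraries, and that difference enters these values. The genes of most like pattern were sought among 9626 genes with a symbol and at least 5 GeTMM in a group mean. For DEFB1 they were SULT1C4, S100A1, ITPKC, PAMR1 and ACSF2 (r = 0.78 to 0.74). For FAXDC2 they included PDCD4, ASPA, ITPKC and MYRIP (0.91 to 0.87), so that ITPKC stood in both lists.

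For ALDH2 the closest genes were ACSS1, TMTC4, BANK1, EXD3 and MXD4 (0.84 to 0.76). For RNASE4 they were TIFA, N4BP2L1, GALC, SERPINB9 and C1S (0.85 to 0.74). RNASE6 had the loosest likeness, with RHOB, DOK2, RGS2, RAB11A and CXCL1 at 0.67 to 0.63. These correlations are descriptions over libraries of the same horses.

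Genes related to the members were counted from 4 lists, and 31 entries passed the filter. At 48 hours limma called 0 of 31 different between the fluids, 4 had an unadjusted p under 0.05, and voom called 0. With the horse as a block, SLPI, an antiprotease of mucosa and macrophages, was called (1.22 on the log2 scale, FDR 0.0155). At 96 hours 3 were higher in ISF and 3 lower (background 6.16% and 4.3%), with 6 called also when the libraries of Dealings and Dreamer were left out. At 6 days 6 were higher and 8 lower (16.7% and 13.6%), and without Moon's SF library 15 were called, with ALDH5A1 and ALDH6A1 added and LTF lost. At 10 days 5 were higher and 8 lower (9.95% and 10.8%). With the horse as a block, 9, 17 and 16 were called at these times in place of 6, 14 and 13. It added ALDH1A1, ALDH5A1 and SLPI at 96 hours, ALDH5A1, LCN2 and S100A12 at 6 days, and ALDH3A1, ALDH5A1 and FA2H at 10 days. The median log2 difference of the 31 without the block was -0.02, -0.17 and -0.09 at these times, against -0.02 to 0.00 for all genes tested.

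Of the aldehyde enzymes 17 passed the filter, and at 6 days 4 were higher and 5 lower in ISF. ALDH3A2, which oxidises fatty aldehydes, was at 110 ± 22.8 GeTMM in ISF and 240 ± 57 in SF at 6 days (SD, n = 8; -1.10 on the log2 scale, FDR 2.33e-07, lower in 7 of 8 horses). ALDH16A1 was lower in 8 of 8 horses at 6 days (-0.72, FDR 6.43e-07), and ALDH1A1, a retinaldehyde dehydrogenase, too (-1.54, FDR 0.00546). These 3 were also called at 10 days, and ALDH3A1 was called at 96 hours and 6 days (-1.96 and -1.86). ALDH3A1 was lower in 8 of 8 horses at both times, but its ISF means were only 1.38 and 0.503 GeTMM. Its SF values spread beyond their mean, with 13.3 ± 18.5 at 96 hours and 6.71 ± 7.84 at 6 days (SD, n = 8).

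Higher in ISF was ALDH18A1, which makes the proline precursor pyrroline-5-carboxylate, at 25.1 ± 6.50 against 8.74 ± 4.15 GeTMM at 6 days (1.56 on the log2 scale, FDR 4.04e-08, higher in 8 of 8 horses). ALDH1L2, the mitochondrial formyltetrahydrofolate dehydrogenase, was higher in 8 of 8 as well (1.20, FDR 2.15e-06). Both were also called at 96 hours (0.72 and 0.84). ADH5 and ALDH7A1 were slightly higher at 6 days, by 0.34 and 0.47 (FDR 0.0173 and 0.00366). At 10 days ALDH18A1, ALDH7A1 and ADH5 were still called higher (0.75, 0.47 and 0.33, FDR 0.0119, 0.00996 and 0.0414), in 7 of 7 horses each. ALDH1L2 was not called at 10 days (0.40, FDR 0.174). ALDH3B1 was lower at 6 days (-0.67, FDR 0.0102). ALDH1A2 and ALDH1A3 were called lower at 10 days (-0.67 and -1.42, FDR 0.0483 and 0.00783), in 5 of 7 horses each. Their ISF means were 0.439 and 0.223 GeTMM, and 1 SF culture each carried the SF mean, Ollie at 12.04 for ALDH1A2 (median 1.16) and Lurie at 65 for ALDH1A3 (median 0.701). The ALDH1A2 call was lost with voom. AKR1B1, ALDH1L1 and ALDH9A1, all above 50 GeTMM in a group mean, were called at none of the 4 times.

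Of the antimicrobial peptides and proteins 8 passed the filter. SLC11A1, the NRAMP1 metal transporter of phagosomes, was higher in ISF at 96 hours (1.62 on the log2 scale, FDR 0.000196), at 6 days (478 ± 134 against 113 ± 100 GeTMM, 2.45, FDR 9.53e-09) and at 10 days (1.50, FDR 0.000623), in every horse. LYZ, lysozyme, was at 88.3 ± 85.2 GeTMM in ISF and 943 ± 1096 in SF at 10 days (-2.81, FDR 0.0123, lower in 7 of 7 horses). LTF, lactoferrin, and S100A12 were also lower then (-3.26 and -3.20, FDR 0.0275 and 0.0103), and LTF and LYZ at 6 days (-2.60 and -2.08, FDR 0.0483 and 0.0391). The LTF call at 6 days was lost without Moon's SF library (-2.20, FDR 0.0989), and that at 10 days with voom. LTF is also on the neutrophil precursor list, whose mean was lower in ISF too, and the part of that list in these calls was not tested. BPI, LCN2 and SLPI were called at none of the 4 times without the block.

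**Figure D5:**
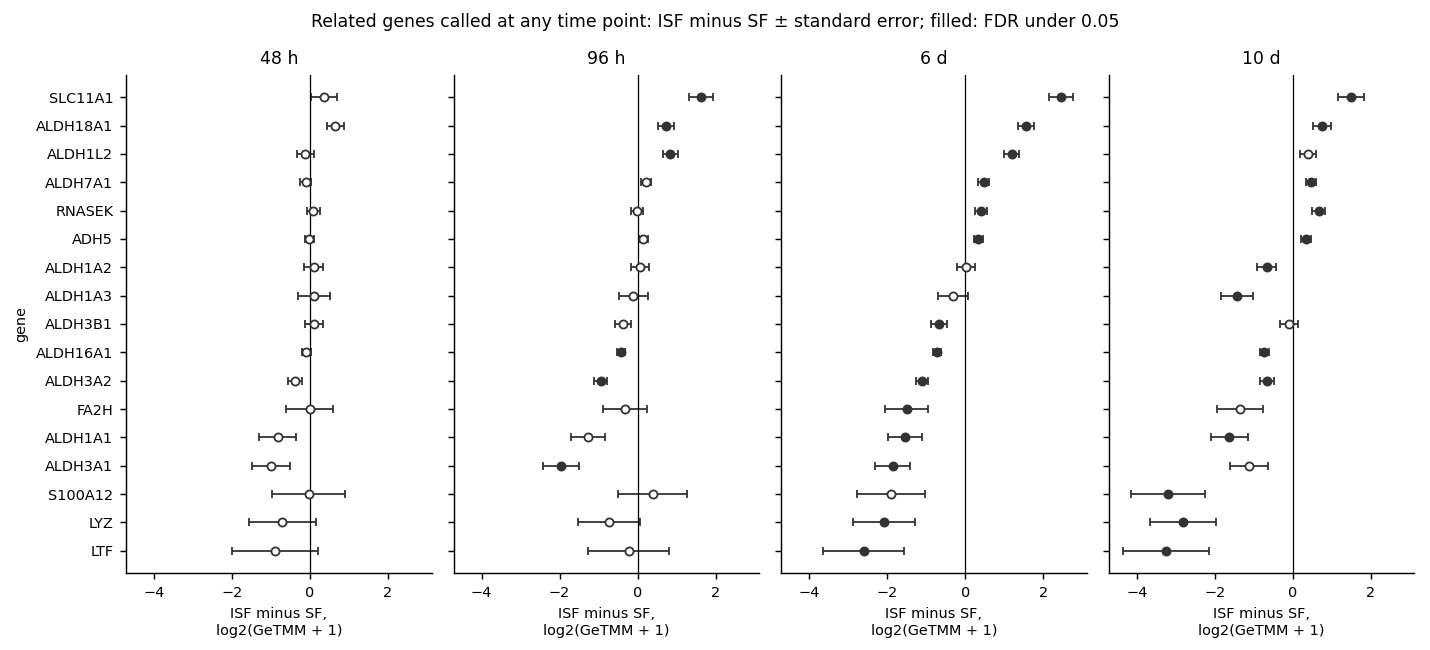
ISF minus SF on the log2(GeTMM + 1) scale, with its standard error, for the 17 related genes called at any time, in 1 panel per time point and filled where the FDR was under 0.05. SLC11A1 and ALDH18A1 lie farthest to the right at 6 days (2.45 and 1.56), LTF and LYZ farthest to the left (-2.60 and -2.08), and no point is filled at 48 hours.

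Of the RNase A family and its partners 3 entries passed the filter. RNASEK, a subunit of the vacuolar proton pump and not an RNase A enzyme, has 2 entries, of which 1 was higher in ISF at 6 days (0.40 on the log2 scale, FDR 0.0357) and 10 days (0.66, FDR 0.00168, higher in 7 of 7 horses). RNH1, the ribonuclease inhibitor that binds RNase A enzymes, was at 25.8 ± 2.45 GeTMM in ISF and 31.5 ± 25.9 in SF at 6 days (22.6 ± 5.73 without Moon), with differences of -0.04 to 0.21 and FDR values of 0.54 to 0.942 over the 4 times. Of the fatty acid hydroxylase superfamily 3 passed. FA2H, which makes 2-hydroxy fatty acids, was lower in ISF at 6 days (-1.50, FDR 0.0333, 7 of 8 horses), and MSMO1, a sterol oxidase of cholesterol synthesis, was called at none of the 4 times.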

How the data were processed

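RNA sequencing of BMNC was analysed in 68 libraries of 8 horses. The authors trimmed the reads, mapped them with STAR 2.7.2a, counted them on genes (GeneCounts) and deposited GeTMM, which like RPKM correct reads for gene length, with library sizes adjusted by TMM. Every column of the table belonged to a library. The smallest step of each gene in each library gave back the reads on genes (within 0.02 reads for 100.0% of 24065 genes). For Lurie's 48 hour SF library the reads rest on a factor judged from how often even numbers occurred, which leaves its GeTMM values as deposited.

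Differences were tested with limma 3.58.1 in R 4.3.3 (trend) on log2(GeTMM + 1) in 1 fit of 9 groups with no term for horse, over 14570 genes (0.5 GeTMM or more in 7 or more libraries). P values are two-sided, and FDR values are Benjamini-Hochberg over all genes tested. Libraries are paired by the horse named in the labels, and 66 of 68 lay closest to their own horse. The authors used DESeq2 on counts, and limma replaced it because the deposited values are not counts. The steps were tested on simulated data. The values simulated for the limma fit held no effect of horse. They therefore cannot show how a fit without a term for horse behaves on libraries that share horses.

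The 5 genes, the related lists and the marker lists were chosen with earlier results of these data known. All members were reported, and related genes when called or above 50 GeTMM in a group mean. Some list genes (ANG, RNASE1, RNASET2, CAMP, S100A8, S100A9, ALDH1B1 and others) were not analysed here. As alternatives, the pseudocount, filter, horse block, groups in the fit, quantile normalization, single libraries and each horse were varied, and voom on the recovered reads was added after seeing the data. The place of RNASE4 beside RNASE6 is from the RefSeq annotation of another horse assembly, and no sequence or coordinate is given. For FAXDC2, 1 gene of like pattern is not reported here.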

Additional observations from a re-analysis of the deposited data

Results flagged for a closer look

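Within groups, 45 sets of values (5 genes in 9 groups) were searched for a highest or lowest library far from the rest, a search in which chance alone flags about 1 in 20 sets. There were 2 such libraries. In SF at 48 hours RNASE4 was at 5.956 GeTMM in RimRun, below the next horse at 15.65 GeTMM. In SF at 6 days RNASE6 was at 133.4 GeTMM in Dreamer, below the next horse at 249.5 GeTMM. RimRun lay below the RNASE4 group mean in all 9 of its libraries, whereas Dreamer lay below the RNASE6 group mean in 6 of 9 libraries.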

How the results depend on the processing

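Of 640 recomputed values of interval changes of single members, 605 kept their side of the threshold, 29 lost the call and 6 gained it. Most of the 640 belong to changes that were not called and had no call to lose. ALDH2 from 6 to 10 days lost its call in 9 of 16 alternatives in ISF and 7 of 16 in SF. DEFB1 from 0 to 48 hours lost it in 8 of 16 in ISF and 1 of 16 in SF. ALDH2 in ISF from 96 hours to 6 days lost it in 4 of 16. The sign turned in 18 values of 8 changes, 0 of them among the called changes. Of 320 recomputed differences between the fluids, 0 changed sign and 1 moved beyond the spread, FAXDC2 at 48 hours with voom (-1.83). This contrast chose the genes, so its sign over refits of the same libraries is a description only. The filter and the choice of groups in the fit leave its value as it was. The RNASE6 mean of -0.04 at 96 hours, with Dealings and Dreamer left out of both fluids, was not among the 320. The 5 changes called within ISF became 3 with no filter on low values and 3 with only the compared groups in the fit, and 2 to 4 when single horses were left out (2 without Ollie, and 3 without Catnip, Dealings, Dreamer, Lurie or RimRun). The 7 changes called within SF stayed between 6 and 8. With the replicate block (a term for horse) there were 7 in ISF and 8 in SF. Beside the left-out horses, the fall of DEFB1 in ISF from 0 to 48 hours lost its call with a pseudocount of 0.1 (FDR 0.0561) and with no filter (0.0682), and the 3 later falls of ALDH2 lost theirs with only the compared groups in the fit (0.0711 to 0.253). The ALDH2 falls from 6 to 10 days lost theirs with quantile normalization as well (0.0898 in ISF and 0.185 in SF), and the one in ISF with no filter (0.0625). The block changed the calls of RNASE4 given above and of no other member, and RNASE4 in SF from 48 to 96 hours also gained a call with quantile normalization (FDR 0.0375) and without Moon's 6 day SF library (0.038).

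Among the related genes, the count at 48 hours went from 0 to 1 with the replicate block, with only the compared groups and with quantile normalization, to 2 without Moon's 6 day SF library, and to 0 to 2 when single horses were left out (2 without Moon). The count of 14 at 6 days became 8 with only the compared groups and 9 to 15 when single horses were left out (9 without Ollie), and that of 13 at 10 days became 8 with only the compared groups and 8 to 14 when single horses were left out (8 without Catnip). Fewer samples entered the fits of compared groups and without a horse. The cause of the changed counts was not tested for any alternative. Single-read steps limit FAXDC2 and DEFB1 in ISF, where values rest on as few as 18 and 20 reads.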
